A study of Mus musculus with 4 samples.

Results

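The strongest compact open regions of mouse MPP3 cells were described in 4 ATAC-seq libraries. Peaks of the 4 deposited lists that shared at least 1 bp on chromosomes 1 to 19, X and Y were joined into 77914 regions. Of these, 3985 were kept, because they were narrower than 1500 bp and held in every library a peak within the top 10% of that library's list by −log10 q, a measure of a peak's significance against its local background. They made up 5.11% of all regions and 9.47% of the 42090 compact regions that all 4 libraries shared. The regions were chosen by their peaks' −log10 q and by width, so both are given below as a description, with no test. Values that the rule did not use are where the regions lie, the sequence of their promoters, and their summit positions.

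MPP3 cells are multipotent progenitors of the bone marrow whose output leans to granulocytes and monocytes. They were sorted by flow cytometry from the bone marrow of WT-iMOS mice aged 3 months, and the study's question was the intrinsic role of Bcl11a, a zinc finger repressor of blood cells, in MPP3 function. The 2 T2 libraries carry the genotype label WTiMOS_T2 and the 2 T1 libraries the genotype label WTiMOS_T1. No label explains the names T1 and T2, which cells the iMOS alleles mark, or whether the libraries of a group came from separate animals, so differences between groups are read only against the spread between these libraries. The T2 libraries had 66776 and 62718 peaks, against 58469 and 54057 peaks in the T1 libraries. The lists hold no read counts, so the depth of each library is unknown. Among 10 genes of progenitors of the MPP3 type, 8 had a peak within 1000 bp of a gene end in all 4 libraries, Ly6a had none in any library, and Mpo, myeloperoxidase, had one in the T2 libraries alone. Of 24 genes of T, B, NK, erythroid, mature myeloid, endothelial, stromal, epithelial and neural cells, 11 had a peak in all 4 libraries and 10 had none. None of these marker genes had one of the 3985 regions at an end. Even so, the best peak at the progenitor gene Cebpa was within the top 10% of every list by −log10 q. The best peak at Kit, the stem cell factor receptor gene, had a −log10 q of 83 and 72.1 in the T2 libraries and 89.3 and 58.9 in the T1 libraries. Among the markers of other cells the highest values stood at the endothelial receptor gene Kdr, which had 90.1 and 84.8 in the T2 libraries and 111 and 76.2 in the T1 libraries. The progenitor gene Cebpa stood above Kdr in every library, with 134 and 105 in the T2 libraries and 140 and 109 in the T1 libraries. Spi1 did so in the T2 libraries alone, and the other progenitor genes were below Kdr in every library. The part of other cells in the regions was not tested.

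ATAC-seq uses a transposase that inserts sequencing adapters into DNA free of nucleosomes, and a peak marks a stretch where insertions pile up. Promoters of genes that dividing cells keep active are among the most open stretches in nearly every cell type. Many are rich in CpG and lack a TATA box. They bind factors present in most cells, such as SP1 and KLF proteins at GC boxes, ETS proteins, NRF1, E2F proteins and NF-Y, a trimer of NF-YA, NF-YB and NF-YC that binds the CCAAT box and bends the DNA. Enhancers that act in one lineage usually lie away from gene starts and bind lineage factors such as RUNX, PU.1 and GATA proteins.

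The sequences that carry the main pattern are promoters with CCAAT boxes, printed below for 5 of the strongest regions that hold a start site. Each is the 250 bases before the start site, 5′ to 3′ on the gene's strand, from RefSeq on GRCm38.p6, the same assembly as mm10. Capitals mark CCAAT or its reverse complement ATTGG. Hjurp encodes the chaperone that loads the centromere histone CENP-A. Hnrnpc encodes a protein that coats newly made RNA, and Tomm40 the channel through which proteins enter mitochondria. Slc25a42 encodes a mitochondrial carrier of coenzyme A, and Osbp an oxysterol-binding lipid transfer protein.
Hjurp promoter, chr1:88277580-88277829, minus strand: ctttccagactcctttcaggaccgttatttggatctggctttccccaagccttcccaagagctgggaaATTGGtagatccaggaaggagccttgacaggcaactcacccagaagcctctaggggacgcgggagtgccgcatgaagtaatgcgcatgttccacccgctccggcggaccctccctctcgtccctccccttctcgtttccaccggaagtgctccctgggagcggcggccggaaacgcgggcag
Hnrnpc promoter, chr14:52104022-52104271, minus strand: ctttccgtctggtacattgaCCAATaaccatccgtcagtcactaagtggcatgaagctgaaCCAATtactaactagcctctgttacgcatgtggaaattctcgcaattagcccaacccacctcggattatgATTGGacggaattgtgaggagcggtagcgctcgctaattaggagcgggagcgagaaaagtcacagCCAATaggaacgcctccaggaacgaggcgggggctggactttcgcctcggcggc
Tomm40 promoter, chr7:19715430-19715679, minus strand: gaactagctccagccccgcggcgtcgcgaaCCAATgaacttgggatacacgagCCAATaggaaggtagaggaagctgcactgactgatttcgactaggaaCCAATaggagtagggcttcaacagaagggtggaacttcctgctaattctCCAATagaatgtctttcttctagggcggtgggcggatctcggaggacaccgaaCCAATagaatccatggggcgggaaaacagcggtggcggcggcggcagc
Slc25a42 promoter, chr8:70212282-70212531, minus strand: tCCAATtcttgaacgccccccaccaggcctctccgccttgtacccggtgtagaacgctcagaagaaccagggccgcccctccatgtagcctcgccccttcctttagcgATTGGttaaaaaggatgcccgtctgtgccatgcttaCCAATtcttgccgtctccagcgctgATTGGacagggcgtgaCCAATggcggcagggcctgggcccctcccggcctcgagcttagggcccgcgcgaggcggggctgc
Osbp promoter, chr19:11965594-11965843, plus strand: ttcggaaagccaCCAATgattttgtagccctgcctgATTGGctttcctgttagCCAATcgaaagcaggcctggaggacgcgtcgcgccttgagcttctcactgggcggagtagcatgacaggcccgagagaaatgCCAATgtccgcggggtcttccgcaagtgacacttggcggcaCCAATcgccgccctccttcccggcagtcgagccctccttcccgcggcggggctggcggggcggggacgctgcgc

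The Hjurp window had 1 CCAAT box, the Hnrnpc window 4, and the windows of Tomm40, Slc25a42 and Osbp 5 each. They are not the strongest in unbroken order. Start-site regions ranked between them lay at Ap2a1, Pdia4, Khsrp and Mxd4, whose windows had 2, 3, 1 and 2 boxes. The next sequences belong to 1 region, chr11:87108675-87109544, which holds the start sites of a divergent pair, 547 bp apart. Prr11 encodes a protein of cell cycle progression, and Ska2 a subunit of the complex that ties kinetochores to spindle microtubules.
Prr11 promoter, chr11:87108715-87108964, minus strand: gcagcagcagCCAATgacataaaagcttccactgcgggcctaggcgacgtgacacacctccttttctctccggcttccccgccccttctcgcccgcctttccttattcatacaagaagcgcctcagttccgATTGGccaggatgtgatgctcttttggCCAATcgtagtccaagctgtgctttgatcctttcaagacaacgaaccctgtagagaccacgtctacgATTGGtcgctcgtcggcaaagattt
Ska2 promoter, chr11:87109011-87109260, plus strand: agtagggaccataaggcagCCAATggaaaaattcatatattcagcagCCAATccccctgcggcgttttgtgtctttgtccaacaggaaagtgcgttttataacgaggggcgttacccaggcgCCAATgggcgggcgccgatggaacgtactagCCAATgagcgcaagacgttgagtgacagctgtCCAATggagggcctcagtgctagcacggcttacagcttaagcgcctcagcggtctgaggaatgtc

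Here the Prr11 window had 4 CCAAT boxes and the Ska2 window 5. Rpl27, a protein of the large ribosomal subunit, and Flt3, a cytokine receptor of early progenitors, show that the promoter window in a strong compact region can lack the box. The rest of these regions was not searched.
Rpl27 promoter, chr11:101441995-101442244, plus strand: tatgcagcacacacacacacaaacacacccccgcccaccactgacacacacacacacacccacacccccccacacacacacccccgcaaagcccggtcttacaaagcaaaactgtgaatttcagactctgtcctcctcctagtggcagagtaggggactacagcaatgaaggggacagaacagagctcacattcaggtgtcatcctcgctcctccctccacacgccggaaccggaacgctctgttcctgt
Flt3 promoter, chr5:147400490-147400739, minus strand: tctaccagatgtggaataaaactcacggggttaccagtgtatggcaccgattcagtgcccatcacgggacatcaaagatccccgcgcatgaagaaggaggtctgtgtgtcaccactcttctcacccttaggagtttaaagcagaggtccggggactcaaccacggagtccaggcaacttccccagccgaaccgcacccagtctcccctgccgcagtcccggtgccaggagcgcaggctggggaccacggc

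The strength of the 3985 regions followed from the rule. Their median −log10 q was 174 and 145 in the T2 libraries and 173 and 135 in the T1 libraries. The medians of the whole lists were 23.9 and 21.9 for T2 and 23.0 and 20.5 for T1. The authors' fold value of a peak, its summit over the local background, had a median in the regions of 16.5 and 17.0 in the T2 libraries and 17.1 and 17.4 in the T1 libraries, against 8.59 and 8.87 over the T2 lists and 8.99 and 9.15 over the T1 lists. These values are the authors' own for each peak and serve here only to rank peaks within a list. The regions were 325 to 1499 bp wide with a median of 965 bp, and covered 3.93 Mb in all. In 3955 of them (99.2%) every library had exactly 1 peak. Of the peaks in the top 10% of each list, the regions held 59.7% and 63.6% in the T2 libraries, against 68.2% and 73.8% in the T1 libraries. Most of the other top peaks lay in shared regions in which another library missed the limit, and 401 to 402 per list lay in 401 broad regions of at least 1500 bp.

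At the limit itself the regions differed little. The last 3 inside had their lowest-placed peak at 9.99686%, 9.99713% and 9.99846% of a list and held the start sites of Ipo13, Fmc1 and Itgav. The first 3 outside had it at 10.0002%, 10.0006% and 10.0043%, and lay 1705 bp from Il9, at the start sites of Emg1 and Phb2, and at that of Gcc1. In T1 replicate 2 the Ipo13 region had a −log10 q of 90.82 and the region of Emg1 and Phb2 90.81.

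Most of the regions lay at genes' ends, and the share was higher the stronger the region. Of the 3985, 2736 (68.7%, 95% Wilson interval 67.2 to 70.1%) lay within 1000 bp of an end of a protein-coding gene, against 22.4% (22.0 to 22.8%) of the 38105 other compact shared regions. A start site lay inside 2422 of them (60.8%, 59.3 to 62.3%), against 15.4% (15.04 to 15.76%) of the other compact shared regions. The 401 broad regions with all 4 libraries in the top 10% stood higher, with a start site inside 78.1% (73.7 to 81.8%). The intervals cover counting error only. The 3985 were also wider than the other compact shared regions, whose median was 683 bp. Among regions of 800 to 1200 bp, 74.0% of 2373 lay at a gene end, against 37.1% of 10050 others. By the rank of the lowest-placed library, the share at a gene end was 83.5% for the 321 regions with all 4 libraries in the top 1%. It was 71.7% between 2 and 5%, 62.9% between 5 and 10%, 47.5% between 10 and 20%, and 18% between 40 and 50%. In the weakest ranks the share varied little, at 13.7% between 70 and 80% and 16.6% between 90 and 100%.

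**Figure D1:**
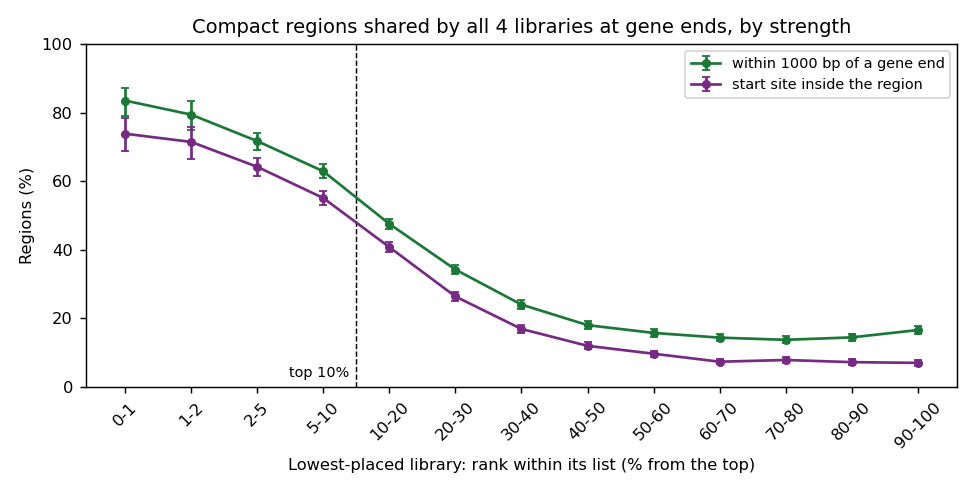
Share of compact regions shared by all 4 libraries (percent, vertical axis) that lay within 1000 bp of a protein-coding gene's end or held a start site, against the rank of the region's lowest-placed library within its list (percent from the top). Error bars are 95% Wilson intervals and the dashed line marks the top 10%. The share at gene ends was 83.5% in the top 1% and 62.9% just inside the limit.

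Among the strongest at gene ends, the region at Hjurp had a −log10 q of 501 and 385 in the T2 libraries and 527 and 390.4 in the T1 libraries, which ranked 3rd and 5th in the T2 lists and 5th and 6th in the T1 lists. The region at Hnrnpc, chr14:52103740-52104692, had 407 and 355 in the T2 libraries and 432 and 355 in the T1 libraries. At Pdia4, a protein disulphide isomerase of the endoplasmic reticulum, the region chr6:47813085-47813848 had 460.3 and 361 in the T2 libraries and 419 and 318 in the T1 libraries. All of these values stand far above the q at the top 10% limit, which was 109 and 94.0 in the T2 lists and 111 and 90.8 in the T1 lists. The region shared by Tomm40 and Nectin2 had 427 and 324 in the T2 libraries, against 436 and 359.9 in the T1 libraries. The region at Khsrp, which encodes an RNA-binding protein that speeds mRNA decay, had 361 and 339 in the T2 libraries and 464 and 372 in the T1 libraries, and ranked 31st and 15th in the T2 lists and 7th in both T1 lists. The reverse order of ranks stood at Mxd4, whose product pairs with MAX and opposes MYC, with ranks 10 and 16 in the T2 lists and 29 in both T1 lists. No such difference was tested, since 2 against 2 libraries allow no exact two-sided p below 0.3333.

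Other regions among the 20 strongest at gene ends lay at genes of varied roles. Ap2a1 encodes a subunit of the clathrin adaptor AP-2, Mtmr4 a phosphoinositide phosphatase, and Rab11b a GTPase of recycling endosomes. Ensa encodes an inhibitor of the phosphatase PP2A that acts at entry into mitosis, Cdca2 a protein that brings the phosphatase PP1 to chromatin, and Tedc1 a protein of centriole assembly. Stip1 encodes a co-chaperone that links Hsp70 and Hsp90, and Hsd17b12 an enzyme of fatty acid elongation. Among these 20 the lowest −log10 q was 294 in T2 replicate 2 and 295 in T1 replicate 2.

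Fold values set 4 regions apart from the rest. The region chr9:123461792-123462262 near an end of Lars2, the mitochondrial leucyl-tRNA synthetase gene, was 471 bp wide and had a fold of 41.3 in both T2 libraries and of 40.7 and 41.8 in the T1 libraries. The region chr16:11143913-11144300 in Zc3h7a, a gene of a zinc finger protein, was 388 bp wide and had a fold of 39.7 and 40.9 in the T2 libraries and 41.6 and 42.5 in the T1 libraries. The region chr11:109011646-109012177, in the long noncoding RNA gene Gm36876 and 60.9 kb from Axin2, ranked first in all 4 lists, with a −log10 q of 1336 and 944 in the T2 libraries and 1893 and 1522 in the T1 libraries. These 3 regions were narrow, and the next highest mean fold over the libraries was 28.1. At the other end, the region chr17:39847599-39848837, which holds the ribosomal RNA pseudogene Rn18s-rs5 and the long noncoding RNA gene AY036118, had a fold of 2.66 and 2.78 in the T2 libraries and 2.74 and 2.63 in the T1 libraries, while the second lowest mean fold was 6.01, at Mnt. It ranked 313th and 384th in the T2 lists, and 14th and 73rd in the T1 lists. The noncoding genes and Mnt were named after their values were seen. No list of regions prone to artefacts was used here. Without these 4 the share at gene ends was 68.7% of 3981.

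**Figure D2:**
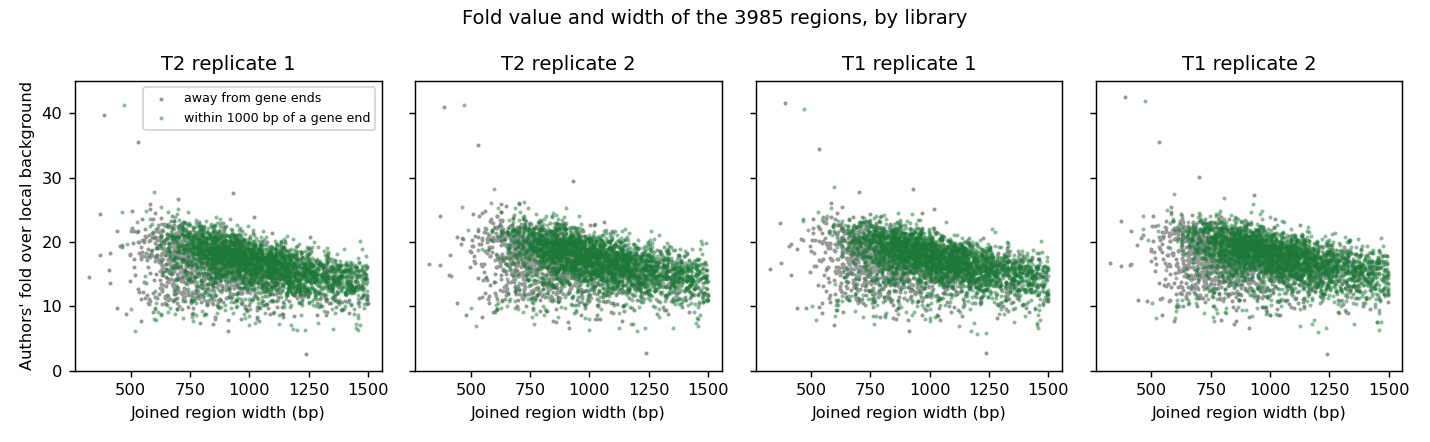
Authors' fold value of the library's peak (vertical axis) against the width of the joined region in bp (horizontal axis) for the 3985 regions, with 1 panel per library and 1 point per region. In every panel 3 narrow regions stand apart at folds from 34.4 to 42.5 and 1 region at 2.63 to 2.78, while the rest form a single cloud that falls with width.

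Start sites inside the regions sat close to the peak summits. Where a region held several, the one nearest the libraries' median summit was taken, which shortens the distance. The same was not measured in the other compact shared regions. In the 2422 regions with a start site, the median summit lay at -55 bp in both T2 libraries, and at -51 and -54 bp in the T1 libraries, where negative positions are upstream. Between 69.5% and 69.9% of the summits were upstream, and 86.1% to 86.9% lay within 200 bp of the start site. The regions themselves reached about equally far to both sides, with medians of 481 bp upstream and 494 bp downstream.

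**Figure D3:**
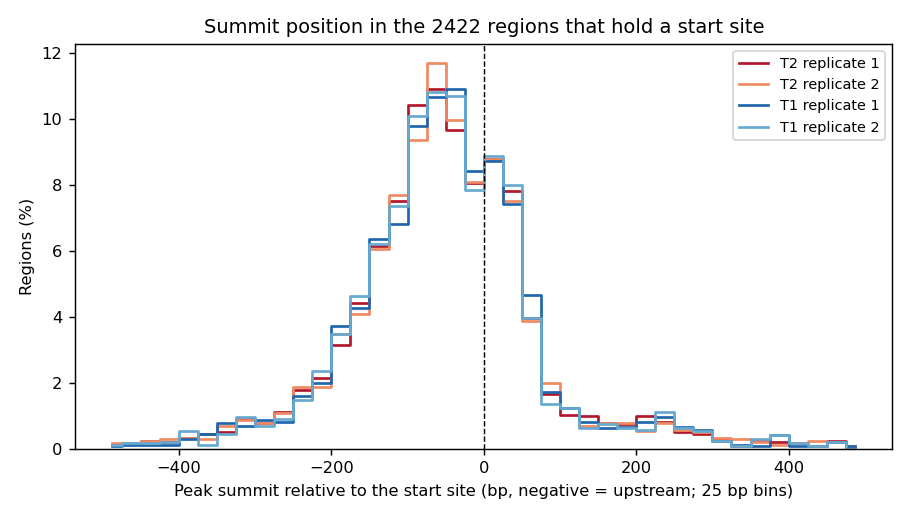
Position of each library's peak summit relative to the start site in bp (horizontal axis, negative upstream, 25 bp bins) and percent of the 2422 regions with a start site (vertical axis), with 1 line per library. All 4 lines peak upstream of the start site, near their medians of -55 to -51 bp.

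Some of the regions with a start site held a divergent pair. In 300 of the 2422 regions (12.4%, 11.1 to 13.8%) the start sites of a gene on each strand lay back to back, against 262 of 5866 other compact shared regions with a start site (4.47%, 3.97 to 5.03%). The broad regions had such a pair in 46 of 313 (14.7%, 11.2 to 19.05%). The start sites of the pairs in the 3985 were a median of 165.5 bp apart, against 94 bp in the other compact shared regions and 261.5 bp in the broad regions. These sets also differ in width, and the part of width in the share of pairs was not tested. The region of Prr11 and Ska2, printed above, was the strongest of them. The region of Mrpl18, a mitochondrial ribosomal protein gene, and Tcp1, a gene of the chaperonin that folds tubulin and actin, had start sites 238 bp apart and a −log10 q of 337 and 296 in the T2 libraries and 342 and 261 in the T1 libraries. Nop14, needed to make the small ribosomal subunit, stood 231 bp from Grk4, and Mis12, a kinetochore gene, 308 bp from Derl2, a gene of protein removal from the endoplasmic reticulum. These examples beyond Prr11, Ska2 and Mrpl18 were picked as the strongest pairs after their values were seen.

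Of the 14 motifs searched, the CCAAT box was the one whose share varied most with strength in percentage points. It is the binding site of NF-Y and stood, on either strand, in 52.8% (51.01 to 54.53%) of the 3085 promoter windows of 300 bases inside the regions. The share was 32.4% (31.3 to 33.5%) of the 6824 windows in the other compact shared regions and 38.2% of all 21229 windows. It was 39.3% (38.3 to 40.3%) of the 8811 windows with no open region, above that of the other compact shared regions, and 34.3% (32.0 to 36.7%) of the windows of 55 to 65% GC among these. Base composition differed little between the first 2 sets, with a median GC content of 62.3% in the regions and 61.0% in the other compact shared regions, but was 56.3% over all windows. Within windows of 55 to 65% GC the box stood in 57.8% of those in the regions, against 33.0% of those in the other compact shared regions and 39.5% of all such windows. By the lowest-placed library's rank it stood in 72.8% (67.5 to 77.5%) of 301 windows in the top 1%, in 56.7% between 1 and 5%, in 45.1% between 5 and 10%, in 37.0% between 10 and 20%, and in 29.3% beyond 50%. Ranked by each library alone, the top 1% gave 68.0% in both T2 libraries and 64.8% and 66.5% in the T1 libraries, and ranks beyond 50% gave 28.6% and 28.1% in T2 and 28.5% and 28.8% in T1. The 4 libraries share the same promoters, so they are not independent views of the sequence. Windows of divergent or nearby start sites can share bases. The 3085 windows came from 2746 genes and the 6824 from 5971, and the intervals treat overlapping windows as independent.

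Windows in the regions often held several CCAAT boxes. At least 2 stood in 865 windows (28.0%, 26.5 to 29.7%), against 9.47% (8.79 to 10.2%) in the other compact shared regions and 12.8% of all windows. Neighbouring boxes in a window were a median of 44 bp apart, and 50.4% of the boxes in the regions read CCAAT on the gene's strand. Their median position was -83.5 bp from the start site, and 42.4% lay 40 to 120 bp upstream. Over all windows the median position was -87.5 bp.

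The other motifs varied less across strength ranks in percentage points, but some differed more than CCAAT in other comparisons. From the top 1% to ranks beyond 50%, the ZNF143 motif ACTACAA stood in 10.3% and 1.94% of windows. The GC box GGGCGG of SP and KLF factors stood in 74.7% of the windows in the regions, against 63.8% in the other compact shared regions and 46.2% of all windows. The E2F motif GGCGGGA, which can overlap the GC box, stood in 26.1%, against 20.4% and 14.9%, and the ETS motif CCGGAAG in 23.3%, against 18.2% and 11.6%. The ETS share did not follow strength as CCAAT did, with 18.9% in the top 1%, 24.2% between 5 and 10%, and 7.46% beyond 50%. The ZNF143 motif stood in 7.10% of the windows in the regions, against 3.37% in the other compact shared regions and 3.604% of all windows, and Zfp143, the mouse gene of that factor, itself had one of the regions, with a −log10 q of 261 and 232 in the T2 libraries and 304 and 257 in the T1 libraries. In these promoter windows, motifs of blood lineage factors were no more common than in windows of the other compact shared regions. The GATA motif AGATAA stood in 3.86%, against 6.35% and 9.66% of all windows. The RUNX motif TGTGGT stood in 11.1%, against 12.9% and 14.97%, and the PU.1 motif GAGGAAG in 12.5%, against 13.8% and 13.6%. The TATA motif TATAAA stood in 4.18%, against 7.15% and 12.6%. All windows had a lower median GC content, as given above. Within windows of 55 to 65% GC the GATA motif stood in 4.44%, against 5.04% and 5.23% of all such windows. There the TATA motif stood in 3.97%, against 6.07% and 5.94%, and the GC box in 72.2%, against 64.8% and 60.1%. Shares of the other motifs here are not matched for GC. The NRF1 motif GCGCATG stood in 8.43%, against 7.03% and 4.80%, and the CREB and ATF motif TGACGTC in 8.01%, against 5.14% and 3.84%. For the YY1 motif GATGGCG the shares were 7.46% in the regions, against 6.37% and 4.28%, for the E-box CACGTG 9.66%, against 10.6% and 7.84%, and for the CTCF core AGGGGGC 17.8%, against 16.5% and 12.9%. Each motif was searched on both strands by its exact letters, and a match is a description of the sequence, not a bound site. Only promoter windows were searched, so regions without a start site are not covered.

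**Figure D4:**
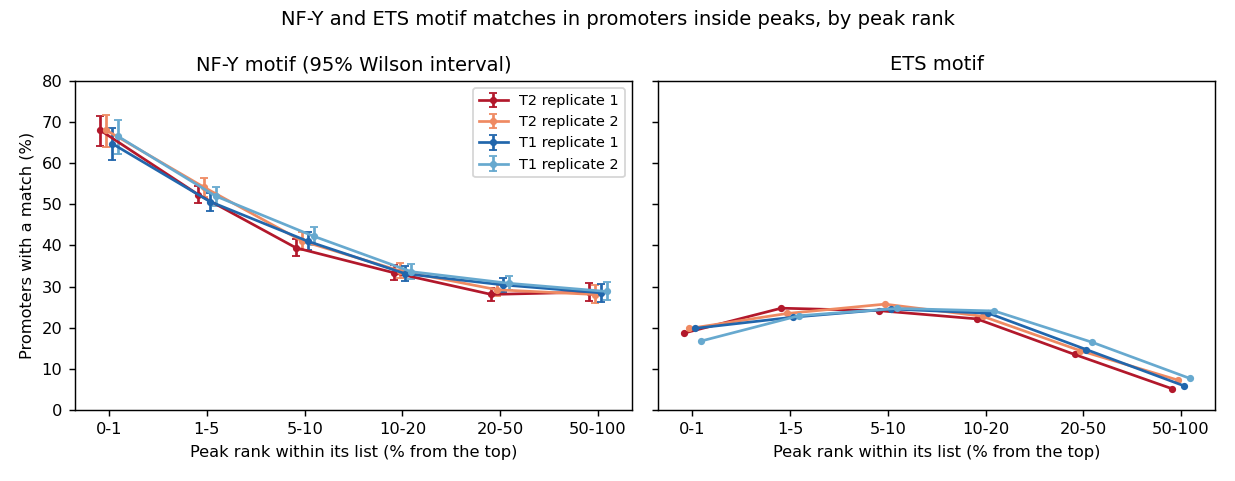
Share of promoter windows inside a peak that hold the CCAAT box (left panel, NF-Y motif, bars are 95% Wilson intervals) or the ETS motif (right panel, no bars drawn) in percent, against the peak's rank within its own library's list in percent from the top, with 1 line per library. CCAAT was at 64.8 to 68.0% in the top 1% and at 28.1 to 28.8% beyond 50% in all 4 libraries, while ETS was at 16.7 to 19.8% in the top 1%, 24.1 to 25.7% between 5 and 10%, and 5.11 to 7.64% beyond 50%.

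CpG content set the windows in the regions apart from most promoters. Their median ratio of observed to expected CpG was 0.825, against 0.739 in the other compact shared regions, 0.873 in the broad regions and 0.567 over all windows. The ratio was above 0.6 in 87.6% of the windows in the regions, against 69.4% in the other compact shared regions and 9.89% of the 8811 windows with no open region.

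Genes that dividing cells need had one of the regions at an end at higher shares than protein-coding genes at large, of which 3336 of 21883 (15.2%) had one. Among DNA replication genes it was 20 of 40 (50%, 35.2 to 64.8%). Gins2 and Gins4, subunits of the replicative helicase, Mcm4, a subunit of its MCM ring, and Rpa1, which binds single-stranded DNA, led them. The region at Gins2 had a −log10 q of 302 and 237 in the T2 libraries and 354 and 256 in the T1 libraries. In the cell cycle list 11 of 34 genes (32.4%) had one, led by Cdkn2d, the inhibitor p19 of Cdk4 and Cdk6, and Ccna2, cyclin A2. The Cdkn2d region had 274 and 231 in the T2 libraries and 263 and 241 in the T1 libraries. For CTCF and cohesin genes the count was 6 of 14 (42.9%), among them Esco2, an acetyltransferase that locks cohesin, and Wapl, which releases it. No open region stood at an end of 34.2% of protein-coding genes at large, and the 15.2% counts these genes too. That share was 10% for DNA replication, 2.94% for cell cycle and 21.4% for CTCF and cohesin genes. Regions are not replicates and these lists were chosen with earlier results of the data known, so the counts are a description, with no test.

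Genes of RNA and protein synthesis had similar shares. One of the regions stood at 20 of 50 splicing factor genes (40%), led by Hnrnpc, and at 17 of 44 genes of RNA polymerase II and Mediator (38.6%), led by Ccnt1, cyclin T1 of the elongation factor P-TEFb. Among 78 cytosolic ribosomal protein genes 31 (39.7%) had one, and 44 more had a weaker region shared by all 4 libraries. The Rpl27 region had 265 and 218 in the T2 libraries and 305 and 237 in the T1 libraries. Translation factor genes had one at 14 of 42 (33.3%). Among these Etf1, the factor that recognises stop codons, had a −log10 q of 375 and 322 in the T2 libraries and 398 and 282 in the T1 libraries, above every other gene named for the lists but Hnrnpc. Eef2, the elongation factor that moves the ribosome along, had 304 and 253 in the T2 libraries and 281 and 243 in the T1 libraries. Aminoacyl-tRNA synthetase genes had one at 8 of 20 (40%), and proteasome genes at 13 of 32 (40.6%), led by Adrm1, a ubiquitin receptor of the proteasome.

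Mitochondrial lists stood lower. One of the regions lay at 14 of 49 mitochondrial ribosomal protein genes (28.6%) and at 13 of 47 oxidative phosphorylation genes (27.7%), led by Ndufs8, a subunit of complex I, with 259 and 208 in the T2 libraries and 257 and 245 in the T1 libraries. Chromatin modifier and remodeller genes had one at 9 of 60 (15%), close to the 15.2% of all genes, although 43 more (71.7%) had a weaker region shared by all 4 libraries. Chd8, a nucleosome remodeller gene, and Suz12, a core gene of Polycomb repressive complex 2, were among the 9.

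Blood gene lists stood near the 15.2% of all genes or under it. Of 40 blood transcription factor genes, 6 (15%) had one and 26 had a weaker shared region. Nfe2, a factor of megakaryocytes and erythroid cells, had 267 and 246 in the T2 libraries and 256 and 222 in the T1 libraries. Runx3 had 308 and 277 in the T2 libraries, against 299 and 198 in the T1 libraries, and Lyl1, a basic helix-loop-helix partner of the E proteins, had 197 and 139.9 in the T2 libraries and 168 and 146 in the T1 libraries. Among progenitor surface and signalling genes it was 5 of 26 (19.2%), with Stat3, Stat5a, Flt3 and Jak1. The Flt3 region had 223 and 192 in the T2 libraries, against 169.5 and 137 in the T1 libraries, and ranked 865th and 766th in the T2 lists and 2355th and 2129th in the T1 lists. Flt3 was singled out after its values were seen, and the share of all the regions with such an order of ranks was not counted. Neutrophil and monocyte genes had one at 1 of 28 (3.57%), Ctsc, the protease that activates granule serine proteases. Erythroid and megakaryocyte genes had one at 2 of 22 (9.09%), Tfrc, the transferrin receptor, and Klf1. Lymphoid genes had one at 1 of 20 (5%), Cd3d, of the T cell receptor complex, whose region ranked 1669th and 998th in the T2 lists and 577th and 997th in the T1 lists and did not hold the Cd3d start site. None of 26 developmental genes of other tissues had one (upper Wilson bound 12.9%), though 10 of them had a weaker shared region. In the list of immediate early and NF-kB genes 7 of 28 (25%) had one, led by Relb, a subunit of NF-kB, and Klf2.

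**Figure D5:**
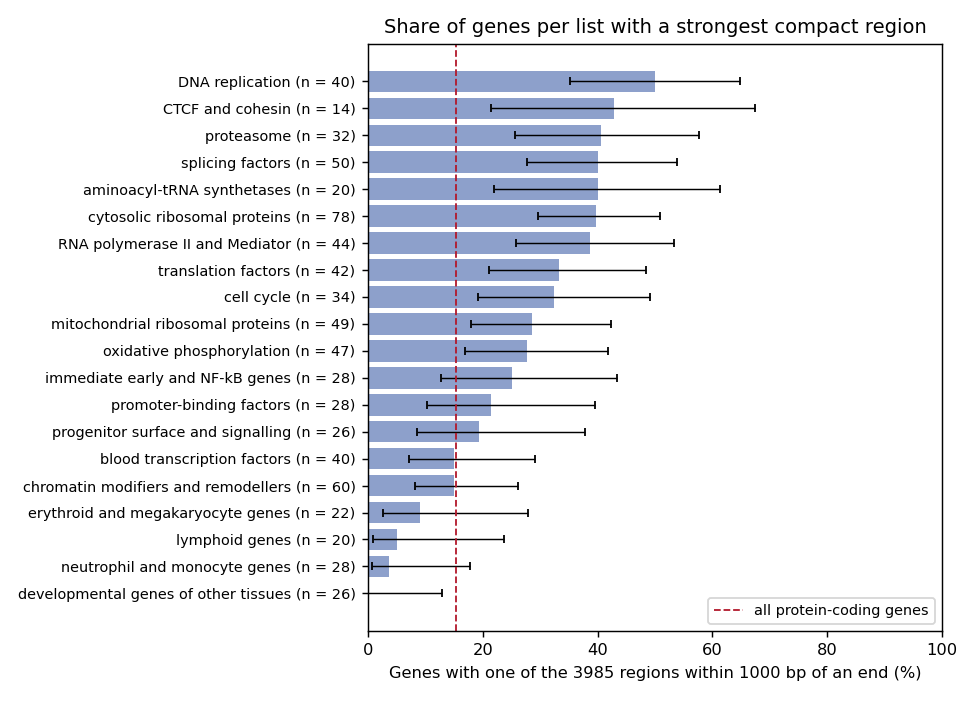
Percent of genes in each of 20 lists with one of the 3985 regions within 1000 bp of a gene end (bars, with 95% Wilson intervals as error bars). The dashed line is the share of all protein-coding genes, 15.2%. DNA replication genes stood highest at 50%, and developmental genes of other tissues were at 0.

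Start sites were also counted alone. Of 17491 genes with a start site in the promoter table, 2754 (15.7%) had it inside one of the regions. The count was 18 of 33 (54.5%) for DNA replication genes, 13 of 26 (50%) for proteasome genes, 4 of 33 (12.1%) for blood transcription factor genes, and 0 of 16 for lymphoid genes and 0 of 19 for developmental genes of other tissues.

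Away from gene ends lay 1249 of the regions (31.3%). Of these, 752 were inside a gene's body, 370 more within 50 kb of a gene, and 127 farther. Their median distance to the nearest end of a protein-coding gene was 13.7 kb, and 201 of them held an annotated start site. They were narrower than those at gene ends, with a median width of 859 bp, against 1011.5 bp. Their median −log10 q was 166 and 144 in T2 and 160 and 126 in T1, against 178 and 146 in T2 and 179 and 140 in T1 at gene ends. The rule held both sets above the same limits, so these medians do not compare the strength of open regions in general. After the regions near Axin2 and in Zc3h7a, the strongest lay in Vav1, in Zfp446 and 38051 bp from Irs2. Vav1 encodes a blood-specific exchange factor of small GTPases, and its region, chr17:57289975-57291268, had a −log10 q of 412 and 381 in the T2 libraries and 403 and 310.0 in the T1 libraries. Irs2 encodes an adaptor of insulin receptor signalling, and the region near it had 355 and 345 in the T2 libraries and 349 and 312 in the T1 libraries.

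Several blood genes without one of the regions at an end had one farther away, in the gene or within 50 kb. Such regions lay at Cx3cr1, a chemokine receptor gene of monocytes, Runx1 (2 regions), Runx2, Meis1, Ptprc (2 regions), Cxcr4, Ltf, Cd34, Klf4 and Fcgr3, while Runx3, Flt3 and Id2 had one besides that at an end. These genes were picked after the values were seen. The stronger of the Runx1 regions, chr16:92800802-92802151, had a −log10 q of 231 and 173 in the T2 libraries and 223 and 189 in the T1 libraries. The region 3263 bp from Ltf, the gene of the granule protein lactoferrin, ranked 1784th and 1336th in the T2 lists, against 4226th and 3139th in the T1 lists. The region 23067 bp from Id2, which encodes an inhibitor of E proteins, ranked 2081st and 1622nd in the T2 lists, against 4553rd and 4908th in the T1 lists. The reverse order stood at the region 22308 bp from Cxcr4, ranked 4120th and 4432nd in the T2 lists, against 2646th and 2245th in the T1 lists. It also stood at the Ptprc region chr1:138191631-138192498, ranked 5182nd and 3879th in the T2 lists, against 3522nd and 2496th in the T1 lists. These regions were singled out for the order of their ranks, which the rule itself used, so no test applies. The share of all the regions with either order was not counted. The body of Tex14 held 5 of the regions, between bases 87422553 and 87472284 of chromosome 11, the most of any gene for regions away from ends, and Cuedc1 held 4.

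Among the autosomes the regions made up between 4.51% (3.97 to 5.11%) of all regions on chromosome 1 and 6.68% (5.997 to 7.427%) on chromosome 7. The X chromosome stood lower, with 38 of 1476 regions (2.57%, 1.88 to 3.51%). Per 100 protein-coding genes it had 3.93 of the regions, against 15.4 on chromosome 7 to 23.6 on chromosome 12. Its strongest lay at Haus7, a subunit gene of the augmin complex of the spindle, with a −log10 q of 202 and 178 in the T2 libraries and 184 and 157 in the T1 libraries, then at Med14, the scaffold of Mediator, and Dkc1, the pseudouridine synthase dyskerin. The Y chromosome had none among 14 regions. Neighbouring regions on a chromosome were a median of 80.2 kb apart, and 242 (6.07%) lay within 10 kb of another.

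Noncoding genes were also at the regions. An end of a long noncoding RNA gene lay inside 410 of them (10.3%, 9.38 to 11.3%), against 4.01% (3.82 to 4.21%) of the other compact shared regions. Of the 410, 107 lay away from the ends of protein-coding genes. The regions were also wider, and more often at protein-coding gene ends, than the other compact shared regions. Small nuclear RNA genes lay in 9 regions (0.226%, 0.119 to 0.429%), against 20 of the other compact shared regions (0.0525%, 0.0340 to 0.0811%), and included Rnu1a1, Rnu2-10 and Rnu12 of the spliceosome. These genes have near-identical copies, and which copy the reads came from cannot be told from the peak lists. Transfer RNA genes lay in 15 regions (0.376%, 0.228 to 0.620%), against 0.234% (0.190 to 0.287%) of the other compact shared regions, with intervals that overlapped.

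Summits of different libraries lay close together in the regions. The median distance between the summits of 2 libraries in a region was 6 bp between the T2 libraries and 7 bp between the T1 libraries, and 7, 8, 8 and 9 bp for the 4 pairs of a T2 with a T1 library. Within groups the mean of these medians was 6.5 bp, and between groups 8.0 bp, a difference of -1.5 bp (exact permutation test over the 3 ways to pair the libraries, two-sided p = 0.3333, the smallest it can give). In the other compact shared regions the pair medians were 25 to 30 bp. The rule made those regions the weaker set, and the part of peak strength in summit distance was not tested. Over all 4 libraries the summits spanned a median of 45 bp, against 64 bp in the other compact shared regions, and more than 200 bp in 2.51% of the regions, against 12.8%. As a description across the 3985 regions, the Spearman correlation of −log10 q was 0.861 between the T2 libraries and 0.877 between the T1 libraries, and 0.730 to 0.777 between a T2 and a T1 library. In the other compact shared regions it was higher, at 0.931 between the T2 libraries, 0.923 between the T1 libraries and 0.851 to 0.861 between groups. In each set all pairs share the same regions and the limits that chose them.

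The width of each library's own peak was bounded by the 1500 bp limit on the joined region, with maxima of 1499 and 1496 bp in the T2 libraries and 1498 and 1485 bp in the T1 libraries, so it is given as a description, with no test. The median peak width was 920 and 874 bp in the T2 libraries, against 889 and 841 bp in the T1 libraries, so the groups overlapped. The T2 libraries averaged 897 ± 32.5 bp and the T1 libraries 865 ± 33.9 bp (SD, n = 2 each), a difference of 32 bp. That difference was 9.5 bp without T2 replicate 1, 55.5 bp without T2 replicate 2, 56 bp without T1 replicate 1 and 8 bp without T1 replicate 2. The T2 lists were also longer, with 64747 ± 2869 peaks against 56263 ± 3120 in T1 (SD, n = 2 each), and the part of depth in peak width was not tested.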

How the data were processed

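ATAC-seq was run on 4 libraries of sorted MPP3 cells with the Vazyme Hyperactive ATAC-Seq kit, per the labels' protocols. The submitters' processing notes name Bowtie2, SAMtools, MACS2 and mm10. No label or header gives their versions, settings, read filters or the transposase shift. Each of the 4 deposited lists carries 1 library's peak names. The deposited fold value is a ratio over local background, the deposited −log10 p and −log10 q give each peak's significance, the deposited score is a whole number derived from −log10 q in nearly all peaks, and the deposited summit offset is counted from the peak start. These columns follow the order that MACS2 writes. None of these columns counts reads, which leaves depth and its precision unknown and allows no count model.

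Peaks sharing at least 1 bp on chromosomes 1 to 19, X and Y were joined, and ranks were taken within each list by −log10 q. Joining and choosing were tested on simulated peaks. Gene ends came from RefSeq GRCm38.p6 (21883 protein-coding genes). The promoter table of the same build gave start sites and windows from 250 bases before to 50 after the start for 17491 of them. Motif shares use its 21229 windows of full sequence that differ in position or strand. All 726 symbols of the 20 lists matched. Shares have 95% Wilson intervals. The test of summit distances within and between groups is an exact permutation over 2 against 2 libraries, whose smallest two-sided p is 0.333. The planned test of peak width is not given, since the width limit bounds each peak. Python 3.11.15, NumPy 2.4.6, pandas 2.3.3, SciPy 1.17.1 and Matplotlib 3.10.9 were used.

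Named were the 20 strongest regions at gene ends and the 5 strongest away from them by the rank of the lowest-placed library, up to 4 genes per list, and 3 regions on each side of the limit. Predicted gene models were left out, and a few regions meeting this rule are not reported here. The text names some of these and says where others were picked with values in view. The members, lists and rules were chosen with earlier results of these data known. Alternatives were other limits on rank and width, ranking by fold, no width limit, a stricter overlap, lists shortened to the length of the shortest, other windows at gene ends, and leaving out each library.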

Additional observations from a re-analysis of the deposited data

How the results depend on the processing

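The number of regions was 1871 with the top 5% of each list, 8489 with the top 20%, and 2201 with a limit of 1000 bp on width. The share at gene ends was 75.2% with the top 5%, 57.4% with the top 20%, 56.4% with ranks by fold, 58.8% under 1000 bp, 63.8% counting regions that touch a gene end, and 72.7% within 2500 bp of one. The CCAAT share, whose alternatives were chosen after seeing the data, was 59.7% with the top 5%, 46.1% with the top 20% and 55.1% under 1000 bp. Leaving out each library in turn gave 4147 to 4347 regions, 67.3 to 69.0% at gene ends, 51.5 to 52.7% of windows with CCAAT, a summit difference of -2 to -0.5 bp and a width difference of 8 to 56 bp. No paired analysis was possible because the labels tie the replicate numbers to no shared animal, batch or day and no result comes from a model fit. With 2 libraries per group and no read counts, no difference between T2 and T1 could pass a threshold of 0.05.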
